A study of Arabidopsis thaliana with 4 samples.

Results

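RALFL25 (AT3G25165), PLIM2b (AT1G01780), TUA1 (AT1G64740), sks18 (AT1G75790) and AT1G24620 are genes of late pollen and the pollen tube in Arabidopsis thaliana. They are 5 of the 5443 genes that had an array probe listing that gene alone in the platform annotation, and each was measured by 1 such probe among 26474 gene probes. All 5 had a value on all 4 arrays and are among the 5386 genes that did. The genes were chosen with their ratios on these arrays known, so their ratios are given as a description, without a test.

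Each of the 4 arrays, spotted with long oligonucleotides, set total RNA from inflorescences of the mutant pistillata against total RNA from wild-type inflorescences in 2 channels. Arrays 1 to 4 are the sets 1 to 4 of the labels, which assign channel 1 to pistillata on arrays 1 and 3 and channel 2 to it on arrays 2 and 4. The sources used here do not give the pistillata allele, the strain, the growth conditions, the dyes or the number of plants behind an RNA sample. Separate cultures of plants are not mentioned for the arrays, so SDs and p-values cover only array-to-array spread, part or all of which may be technical.

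PISTILLATA is a MADS-box transcription factor that specifies petals and stamens, and flowers that lack it form neither organ. Pollen is made in the anther of the stamen. After meiosis and the cell divisions of the young grain, late pollen stores transcripts for germination, and the tube then grows at its tip toward the ovule. Tip growth draws on secreted signal peptides that survey the wall, on calcium sensors, on actin bundles and microtubules, and on enzymes and proteins of the cell wall.

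Which genotype is the numerator of each ratio was not settled by the labels. As deposited, the 5 genes were all positive on arrays 1 and 4 and all negative on arrays 2 and 3, whereas the labelled channel order puts arrays 1 and 3 together. Across 25018 gene probes whose values stayed inside the limits of the table, arrays 1 and 3, which share a labelled order, had a Pearson's r of -0.68, while arrays 1 and 4 had one of 0.71. TUA1 was itself one of the 4 anther genes by which arrays 1 and 4 were turned. The 3 others are tapetum genes, which serve the anther layer that feeds the pollen. SHT (a spermidine acyltransferase), ATA20 (an anther-specific protein) and SWEET8 (a sugar transporter) had medians, as deposited, of 2.96 on array 1 and 3.98 on array 4, but of -3.34 on array 2 and -3.49 on array 3. The same arrays are therefore turned with TUA1 set aside. In what follows a ratio is the log2 of the pistillata signal divided by the wild-type signal in this likely direction, after the ratios of arrays 1 and 4 were multiplied by -1. With the common sign exchanged, each lower value would be a higher one of the same size and each rank would count from the other end. In whole inflorescences, fewer cells of a type and less RNA per cell cannot be told apart.

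The 5 genes fell into a group of low ratios and a gradient above it. AT1G24620 had the lowest mean ratio, 25.6-fold lower in pistillata than in wild type. The mean of sks18 was 23.1-fold lower but holds 1 value at the limit of the table (14.2-fold lower without array 4). These 2 genes therefore have no settled order. RALFL25 was 15.6-fold lower, PLIM2b 3.41-fold lower and TUA1 1.39-fold lower. The ratios of all 5 were below 0 on all 4 arrays, as were those of 12.9% of the genes measured. The ratios of 4 of the 5 were at least 2-fold lower on every array, against 3.84% of the genes measured, a share from which nothing is read because these ratios were known when the genes were chosen.

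**Figure D1:**
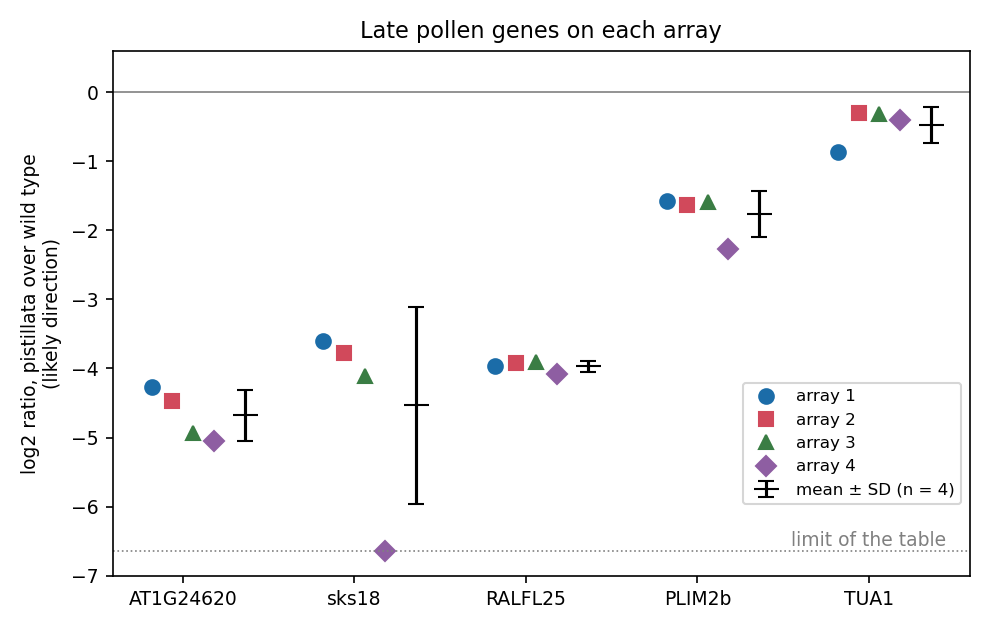
Log2 ratio of pistillata over wild type (vertical axis, likely direction) of the 5 late pollen genes, with 1 symbol for each of the 4 arrays and a bar for the mean ± SD (n = 4). RALFL25 lies between -4.08 and -3.90 on all arrays, whereas sks18 reaches the limit of the table (dotted line) on array 4, and TUA1 lies nearest to 0.

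RALFL25 belongs to the RALF peptides, small secreted cysteine-rich signals that are read by receptor kinases such as FERONIA, and of which several act in pollen and at the stigma. Arrays 1 to 4 gave it log2 ratios of -3.96, -3.92, -3.90 and -4.08. The 4 values lay within 0.18 of one another. The mean was -3.97 ± 0.08 (SD, n = 4), which corresponds to 6.39% of the wild-type signal. Of the 38 other genes whose mean lay within 0.5 of that of RALFL25, 0 had a smaller SD. Their SDs ran from 0.09 to 1.62 with a median of 0.69. By its mean, 29 of the 5386 genes were lower than RALFL25. On single arrays it stood at rank 57, 27, 35 and 123 from the lowest on arrays 1 to 4. Its rank thus moved far more than its ratio, and lay farthest from the bottom on array 4, where 74 genes were at the lower limit of the table (23, 7 and 2 genes were on arrays 1 to 3).

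AT1G24620 encodes a calmodulin-like protein, of the class that binds calcium through EF-hands and passes the calcium signal to other proteins. Arrays 1 to 4 gave it log2 ratios of -4.28, -4.47, -4.93 and -5.04. The mean was -4.68 ± 0.37 (SD, n = 4), or 3.90% of the wild-type signal, and 9 of the 5386 genes had a lower mean. Its highest ratio, on array 1, was below the lowest ratio of RALFL25, on array 4. AT1G24620 was below RALFL25 on 4 of 4 arrays, with differences (AT1G24620 minus RALFL25) of -0.32, -0.54, -1.03 and -0.96 on arrays 1 to 4. Of the 22 other genes within 0.5 of its mean, 1 had a smaller SD, and their median SD was 0.87.

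sks18 encodes a SKU5-similar protein. The family takes its name from SKU5, a glycoprotein of the cell surface and wall that affects the direction of root growth, and is related in sequence to multicopper oxidases. Arrays 1 to 4 gave sks18 log2 ratios of -3.61, -3.78, -4.10 and -6.64. The last of these is the limit of the table, which stops at a 100-fold difference. Values at a limit need not reflect a fall of that size. AT2G03580, for example, had values at a limit with a mean of 0 and an SD of 7.67. Without signal strengths, the true size of the array 4 ratio of sks18 is unknown. The mean of -4.53 ± 1.42 (SD, n = 4) contains this limiting value. Without array 4 the mean was -3.83 ± 0.25 (SD, n = 3), 14.2-fold lower against 23.1-fold with it. The place of sks18 among the 5 genes rests on that array, since its ratio was above that of RALFL25 on arrays 1 and 2 and below it on arrays 3 and 4. The ranges of sks18 and AT1G24620 overlapped, as did those of sks18 and RALFL25, so the order of sks18 relative to either is within the spread between arrays.

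PLIM2b is a LIM protein of the pollen type, which binds actin filaments and gathers them into bundles. Arrays 1 to 4 gave it log2 ratios of -1.58, -1.64, -1.59 and -2.27. The first 3 arrays lay together and array 4 lay apart from them. The mean was -1.77 ± 0.33 (SD, n = 4), or 29.3% of the wild-type signal, and without array 4 it was -1.60 ± 0.03 (SD, n = 3). PLIM2b did not overlap with any of the 4 other genes, and the difference RALFL25 minus PLIM2b lay between -2.38 and -1.81 on every array. By its mean, 189 of the 5386 genes were lower.

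TUA1 encodes an alpha-tubulin, a subunit of microtubules, known for its expression in pollen. Arrays 1 to 4 gave it log2 ratios of -0.86, -0.30, -0.32 and -0.40. Array 1 lay below the 3 others. The mean was -0.47 ± 0.26 (SD, n = 4), or 72.1% of the wild-type signal, and 587 of the 5386 genes had a lower mean. Without array 1 the mean was -0.34 ± 0.05 (SD, n = 3). The difference PLIM2b minus TUA1 was -0.72, -1.33, -1.27 and -1.87 on arrays 1 to 4, and the ranges of these 2 genes did not overlap. The median ratio of all genes was 0.16, and it was 0.05 after each array was centred on the median of its probes, when TUA1 stood at -0.58.

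Array 4 held the lowest ratio for 4 of the 5 genes and array 1 for the remaining gene, TUA1. Many of the most strongly lowered other genes did likewise. Of 72 other genes with a mean log2 ratio of -3 or below and no value at a limit, 40 had their lowest ratio on array 4 and 16 on array 1, while arrays 2 and 3 held it for 8 genes each. Their median ratio was -3.64, -3.49, -3.55 and -4.11 on arrays 1 to 4. PLIM2b lies above that cut. Over all 307 genes called lower by limma without a value at a limit, array 1 held the lowest ratio for 98 and array 4 for 96. The median of the 307 was -1.88, -1.78, -1.79 and -1.65 on arrays 1 to 4. The tapetum genes SHT, at -4.84, and ATA20, at -3.98, were lowest on array 4 too, whereas SWEET8, at -4.40, was lowest on array 1. Without array 4 the means of RALFL25 and AT1G24620 were -3.93 ± 0.03 and -4.56 ± 0.34 (SD, n = 3 each), and those of sks18 and PLIM2b are given above.

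**Figure D2:**
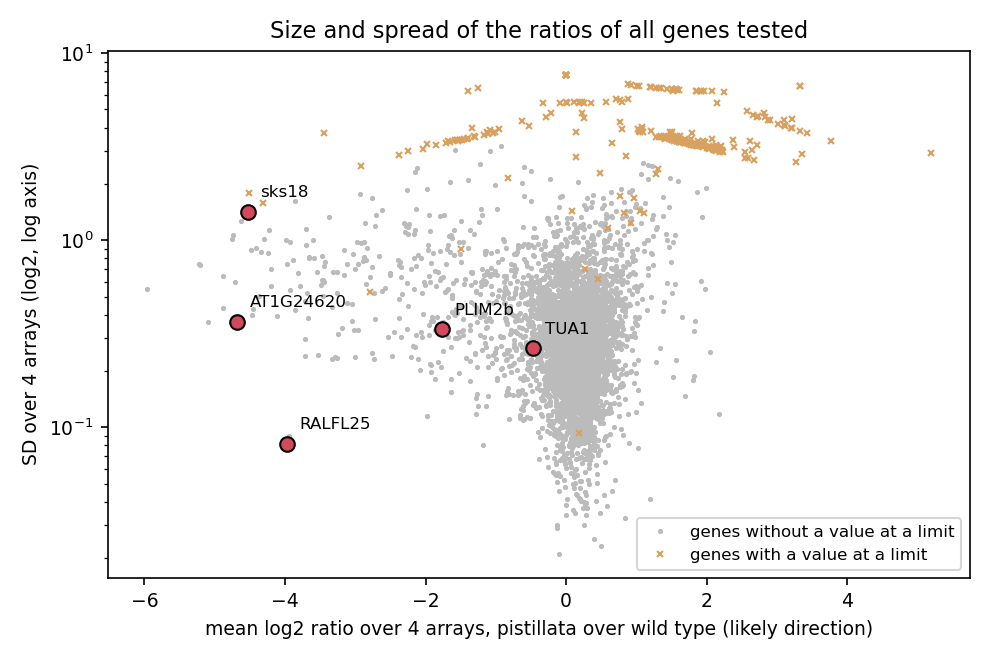
SD over 4 arrays (vertical log axis, log2 units) against the mean log2 ratio of pistillata over wild type (horizontal axis, likely direction) for the 5386 genes with a value on all arrays. Red points are the 5 late pollen genes, and crosses are genes with a value at a limit of the table. RALFL25 combines a mean of -3.97 with an SD of 0.08, while sks18, at an SD of 1.42, lies among the genes with a limiting value.

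Relatives of the 5 genes were examined to see whether their families moved with them. In 7 families (RALF-like peptides, LIM proteins, alpha-tubulins, beta-tubulins, SKU5-similar proteins, calmodulin-like proteins and calcium-dependent protein kinases), 9 of 119 other genes had a probe of their own. The families were gathered by gene symbol, so relatives named only by locus, as AT1G24620 is, are not among the 119. By limma with Benjamini-Hochberg adjustment over all genes, 0 of the 9 were called lower and 0 higher at an adjusted p of 0.05. At an unadjusted p under 0.05, 0 were lower and 1 was higher. Of all genes tested, 5.79% were called lower and 2.75% higher. The median ratio of the 9 relatives was 0.10 and that of all genes 0.16. Probes that list a family gene among several numbered 15, of which limma over all probes called 1 lower and 0 higher, where 7.23% and 2.98% of all probes were called. The lower one lists AT1G21550, CML43 and CML42 and stood at -2.18 (limma adjusted p = 0.011 over all probes).

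Among RALF-like peptides, RALFL34, a peptide of root development, stood at 0.42 ± 0.17 (SD, n = 4) with a limma adjusted p of 0.0868. RALFL27 stood at 0.34 ± 0.33 (SD, n = 4) and RALFL32 at -0.05 ± 0.25 (SD, n = 4), with adjusted p of 0.207 and 0.828 by limma. All values of these 3 relatives lay above every value of RALFL25. WLIM1, a LIM protein of vegetative tissues, was at 0.12 ± 0.31 (SD, n = 4; limma adjusted p = 0.61). Its 4 ratios lay between -0.23 and 0.39, above the range of PLIM2b. CML41 and CML30, calmodulin-like proteins, were at 0.31 and 0.10 (limma adjusted p = 0.397 and 0.674), above AT1G24620 on every array.

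The tubulins did not separate in this way. TUA6, an alpha-tubulin with 2 probes, had a mean of -0.36 ± 0.41 (SD, n = 4; limma adjusted p = 0.254), and its ratios of -0.27, -0.20, -0.0011 and -0.95 on arrays 1 to 4 overlapped with those of TUA1. The beta-tubulins TUB6 and TUB7 were at -0.17 and -0.03 (limma adjusted p = 0.405 and 0.869). No SKU5-similar gene other than sks18 had a probe of its own.

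**Figure D3:**
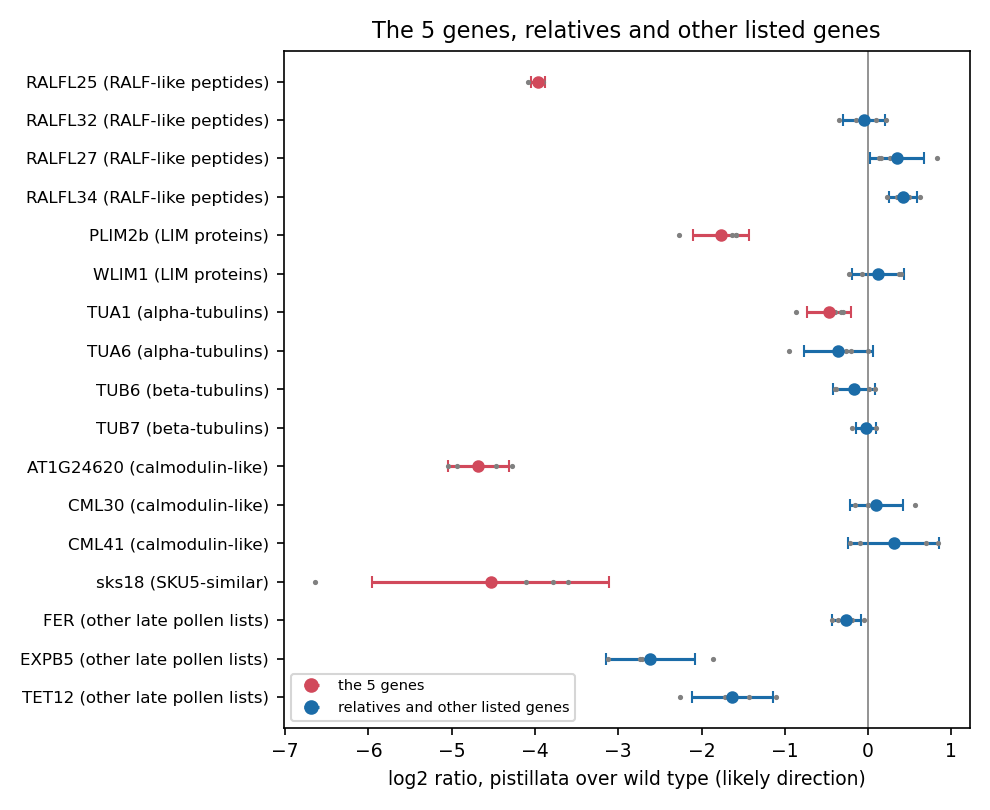
Log2 ratio of pistillata over wild type (horizontal axis, likely direction) of the 5 late pollen genes (red), of their relatives and of 3 other genes of the late pollen lists (blue). Large points with bars are means ± SD over 4 arrays and small grey points are single arrays. RALFL25, PLIM2b and AT1G24620, chosen with their low ratios known, lie apart from the relatives that had a probe of their own, whereas TUA1 and TUA6 overlap.

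Lists of late pollen functions gave 4 further genes with a probe of their own, out of 167 listed genes found in the gene table. By limma, 2 of the 4 fell and 0 rose, with 3 lower and 0 higher at an unadjusted p under 0.05, where 5.79% of all genes were called lower. The median ratio of the 4 was -1.07, against 0.16 for all genes. EXPB5, a beta-expansin of the class that loosens cell walls, had ratios of -2.74, -3.13, -1.86 and -2.72 on arrays 1 to 4. Its mean was -2.61 ± 0.53 (SD, n = 4), 6.12-fold lower, with a limma adjusted p of 0.00541, and it lay between RALFL25 and PLIM2b. TET12, a tetraspanin membrane protein known from sperm cells, had ratios of -2.26, -1.10, -1.72 and -1.43 on arrays 1 to 4. Its mean was -1.63 ± 0.49 (SD, n = 4), 3.09-fold lower, with a limma adjusted p of 0.0164, which was 0.0804 without array 3 and 0.0707 without array 4. Averaging arrays 1 and 2 and arrays 3 and 4 first gave EXPB5 a limma adjusted p of 0.051, and with the arrays turned by the labelled channel order 0 of the 4 genes and 0 of all genes passed.

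The 2 other listed genes did not pass. Of these, FER, the receptor kinase FERONIA of vegetative tissues and the female side of the flower, was at -0.26 ± 0.17 (SD, n = 4; limma adjusted p = 0.19). The ratio of this receptor gene was above that of the peptide gene RALFL25 on every array, as were those of most genes, and neither ratio gives the level of a transcript.

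Probes that list several genes cannot name any of them, but they bear on the same lists. Of 24 such probes with a late pollen gene among those listed, 18 were lower and 0 higher by limma over all probes. Of all probes, 7.23% were called lower and 2.98% higher. The median ratio of the 24 was -2.58. These probes are not separate genes, since PPME1 with AT5G07410, VGD1 with VGDH1, and AGL66 with AGL104 each recur on several. Repeats could differ, as one probe listing CHX23 and CHX21 stood at -3.23 and another at -0.17. Of the 24 probes, 2 list one of the 5 genes beside its relatives, and neither followed the gene's own probe. The probe that lists RALFL25 with RALFL26 and RALFL30 had ratios of 0.43, 0.49, 0.27 and 0.68 on arrays 1 to 4 (limma adjusted p = 0.0697 over all probes). The probe that lists AT1G24620 with AT1G73630 and AT1G18210 had ratios of -0.78, -0.01, 0.01 and -0.27 (limma adjusted p = 0.352 over all probes). Which transcript either probe measures is not given in the sources used here.

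Markers of other cell types moved as follows. All 3 measured tapetum genes were low, SWEET8 at -3.71, SHT at -3.66 and ATA20 at -2.96, and these set the direction, so their sign was built in. The list held 20 genes found in the gene table, and the 17 others had no probe of their own. INO, an ovule gene and the only measured gene of 22 in the carpel list, was at -0.20 ± 0.18 (SD, n = 4; limma adjusted p = 0.288), a mean of 3 probes that differed in sign. Of the petal list, 0 genes were measured by their own probe. Probes that list several genes gave mixed ratios for the other tissues. By limma over all probes, 2 of 5 petal probes and 2 of 3 tapetum probes were lower and 0 higher. Of 8 carpel probes 0 were lower and 1 was higher. Both lower tapetum probes list SWEET8, a direction gene, so they are not separate from the genes that set the sign. The tapetum probe that lists SHT with other genes stood at 0.47. The lower petal probes stood at -2.29 and -2.04 and the higher carpel probe at 0.87 (limma adjusted p = 0.0019, 0.00462 and 0.0161 over all probes). The median was 0.23 over the petal probes and 0.52 over the carpel probes. Another probe that lists BPEp and AT5G62610, as the lowest petal probe does, stood at 0.25. Another that lists NAMT1 and BSMT1, as the other lower petal probe does, stood at 0.23. The means of RALFL25, AT1G24620 and sks18 were below those of all 3 tapetum genes, while PLIM2b and TUA1 were above them. The part of other anther tissue in the ratios of the 5 genes was not tested.

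The genes with the most similar ratios were sought by the root mean square difference over the 4 arrays, among genes without a value at a limit. That choice favours a shared size, spread and lowest array, so these likenesses are a description and not a result. The closest to RALFL25 was AT3G61160, at a difference of 0.07, whose mean of -3.95 ± 0.09 (SD, n = 4) shared both the size and the narrow spread. AT3G21570 and AT2G29790 came next at 0.29 and 0.32. The closest to TUA1 were AT3G21670, AT4G13030 and AT3G25160, at 0.06, 0.08 and 0.10, each with its lowest ratio on array 1. Near 0 many genes lie close together, so a small difference there sets few genes apart.

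PLIM2b was closest to AT2G32360, the metal transporter ZIP6 and AT3G48460, at 0.17, 0.21 and 0.23. All 3 had their lowest ratio on array 4, as PLIM2b did, which the choice by closeness favours. AT1G24620 was closest to AT1G15415, AT1G06260 and AT1G35490, at 0.40, 0.47 and 0.47. The closest genes to sks18 were AT1G33430, AT1G30020 and AT5G16960, at 0.48, 0.49 and 0.50, with the limiting value of sks18 taken as it stands. Their ratios on array 4 were -5.91, -5.72 and -5.76, below their other values but inside the limit.

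**Figure D4:**
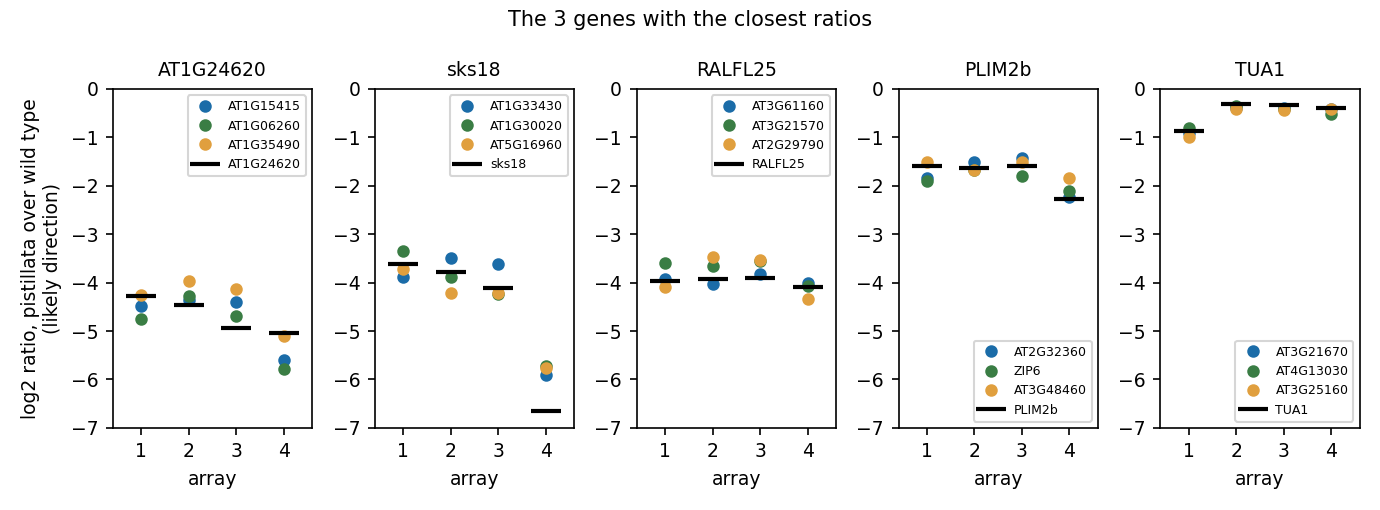
Log2 ratio of pistillata over wild type (vertical axis, likely direction) on arrays 1 to 4 for each late pollen gene (black bars) and the 3 genes whose ratios were closest to it by root mean square difference (coloured points). AT3G61160 follows RALFL25 at a root mean square difference of 0.07, and the genes closest to sks18 share its low value on array 4. The choice by closeness favours such likeness.

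Genes beside the 5 on the chromosomes, in the order of the gene table, mostly did not share their ratios. Within 10 protein-coding genes on either side, 22 neighbours had a probe of their own, with a median ratio of -0.01. By limma, 3 of the 22 were lower and 1 was higher, against 5.79% and 2.75% of all genes. AT3G25160, which directly precedes RALFL25, stood at -0.56 ± 0.28 (SD, n = 4; limma adjusted p = 0.0794), well above it. AT1G01770, directly before PLIM2b, was at -0.30 ± 0.27 (SD, n = 4; limma adjusted p = 0.21).

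The called neighbours were named after their values were seen. AT1G75870, with 7 genes between it and sks18, was at -4.24 ± 0.86 (SD, n = 4; limma adjusted p = 0.00485), close to sks18 in size. MGL, the enzyme methionine gamma-lyase, with 6 genes between it and TUA1, was at -1.82 ± 0.22 (SD, n = 4; limma adjusted p = 0.0029). Near RALFL25, AT3G25080 was lower at -0.78 and AT3G25130 higher at 0.96 (limma adjusted p = 0.0305 and 0.0155). With 1 array left out, the call of AT3G25080 never held, and that of AT3G25130 held only without array 1. The ratios changed little, from -0.89 to -0.70 for AT3G25080 and from 0.86 to 1.03 for AT3G25130. Calls over all genes also became fewer without 1 array, at 159 to 192 lower and 19 to 43 higher against 312 and 148. The limma adjusted p of AT3G25080 was 0.0914, 0.134, 0.129 and 0.0509 without arrays 1 to 4 in turn. That of AT3G25130 was 0.0443, 0.0621, 0.082 and 0.0626 without arrays 1 to 4 in turn.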

How the data were processed

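RNA of pistillata and wild-type inflorescences was compared on 4 arrays with 2 channels each. The deposited table holds log2 ratios of the channels, which per the labels were made and normalized by the method of a cited publication; the sources used here give no background correction, normalization method, dyes or numerator. The scale was read from the limits of the values, -6.64 and 6.64, which match a 100-fold difference. No signal strengths come with the ratios, and the number of arrays limits the precision.

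Of 26933 rows, 424 empty and 35 control spots were left out. Gene probes listed 1 gene in 5784 cases, several in 7497 and none in 13193, and 5415 of 5443 genes matched the gene table (assembly TAIR10.1). The array's build is unknown, so coordinates are left out. Several probes of a gene were averaged.

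Arrays 1 and 4 were multiplied by -1. Genes were tested with limma 3.58.1 in R 4.3.3 (intercept over 4 ratios, eBayes, two-sided, Benjamini-Hochberg over 5386 genes or 26156 probes, threshold 0.05), tested first on simulated data. No p is given for the 5 genes.

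The genes, lists and alternatives were chosen with earlier results of these data known. By rule the text names the measured genes of lists and families with 6 or fewer measured, with the exception given below, the 3 closest genes by ratio, and the tapetum genes. Lists covered RALF signalling, actin, microtubules, wall and pectin, calcium, tip growth, transport, and regulators and germ cells, with tapetum, carpel and petal lists beside them. The actin, microtubule, calcium and transport lists held 0 measured genes beyond the 5. As the exception, 1 measured gene of these lists is counted but not reported here. Symbols that matched no gene or several genes were left out. A planned search of promoters and proteins was not run. Alternatives were centring, scaling, leaving out limiting values, values on at least 3 arrays, pairs of arrays averaged, leaving out each array, the labelled channel order, a channel term, array weights, single probes, the median, and an adjusted p of 0.01; those for probes with several genes were added after the data were seen.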

Additional observations from a re-analysis of the deposited data

Results flagged for a closer look

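In 7 of 42 sets of 4 values, 1 array lay apart from the 3 others by more than Dixon's critical value, taken as a share of the whole range. Chance gives about 1 in 20, but 15 of the sets were chosen because their values resemble those of 1 of the 5 genes, and 4 of the 7 are among these, so the tally is not read against chance. For the 5 genes the gap is a description of the values that were known when they were chosen. PLIM2b stood apart on array 4 at -2.27, with a gap of 0.919 of its range. sks18 stood apart on array 4 at -6.64, the limit of the table, with a gap of 0.836. AT1G15415 and AT1G33430, chosen for their closeness to AT1G24620 and sks18, did so on array 4 at -5.60 and -5.91. AT3G21670 and AT3G25160, chosen for their closeness to TUA1, did so on array 1 at -0.92 and -0.98. AT1G75870, near sks18 on the chromosome, did so on array 1 at -5.52. TUA1 itself reached a gap of 0.828 on array 1 and was not counted.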

How the results depend on the processing

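The mean ratios of the 5 genes kept their sign under centring, scaling, values on at least 3 arrays, averaged pairs, the channel term, the median and each array left out, and with limiting values removed, where sks18 dropped out. Turned by the labels' channel order, the means were -0.025 for RALFL25, -0.16 for PLIM2b, 0.11 for TUA1, -0.84 for sks18 and -0.31 for AT1G24620, and, of the genes called by limma, AT3G61160, EXPB5, SWEET8, TET12, AT1G75870, AT3G25080, MGL and AT3G25130 changed sign to 0.028, 0.32, 0.16, 0.052, 0.38, 0.13, 0.085 and -0.050, as did 10 named genes that had not been called. That order gave limma 0 genes lower, 0 higher, 0 of the 4 listed genes and 0 of the 24 shared probes lower, by construction of the opposed signs. RALFL25 moved by more than its small SD under centring, to -4.08, and under centring and scaling, to -4.19. Without each array in turn, the means ran from -3.99 to -3.93 for RALFL25, -1.83 to -1.60 for PLIM2b, -0.53 to -0.34 for TUA1, -4.84 to -3.83 for sks18 and -4.81 to -4.56 for AT1G24620. Against 312 genes lower and 148 higher by limma, there were 159 to 192 lower and 19 to 43 higher without 1 array, 123 and 21 with averaged pairs, and 145 and 19 at an adjusted p of 0.01. Genes higher numbered 76 after centring, 89 after centring and scaling, 311 without limiting values, 86 with the channel term and 365 with array weights. Of the 4 other listed genes, 1 to 2 were lower without 1 array, 1 with averaged pairs and 1 at an adjusted p of 0.01, against 2, and 3 were lower after centring and after centring and scaling. Array weights called 1 shared probe higher, against 0, and 13 to 16 shared probes were lower without 1 array, against 18. Each ratio already pairs pistillata with wild type within 1 array, and the main test used no further pairing. Without signal strengths, distance from background is unknown.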
